A study of Rattus norvegicus with 6 samples.

Results

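The genes described here take up and bind fatty acids in heart muscle cells. They are 10 of the 30001 features of the deposited table, picked by gene name: Lpl, Angptl4, Gpihbp1 and Vldlr of the lipoprotein lipase axis, the transporter genes Cd36, Slc27a1 and Slc27a4, and the binding protein genes Fabp3, Fabp4 and Fabp5. All 10 names were found. The cells were ventricular heart muscle cells isolated from Sprague-Dawley rats in their first days of life and grown in primary culture. In 3 libraries the cells carried a short hairpin RNA against Decr1, the gene of the mitochondrial dienoyl-CoA reductase, and in the other 3 a non-targeting control. Cells left in suspension after 2 h of attachment were replated and held for 24 h with 10% fetal bovine serum, a source of lipoproteins and fatty acids, in both groups. The labels do not say how the hairpin was delivered, how many hairpins were used or how long the knockdown lasted. They put all 6 libraries in batch 1 and do not state whether replicates came from separate cultures or animals. A p-value here therefore reflects the spread between the libraries alone, and that spread may be technical.

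Heart muscle draws most of its energy from fatty acids. Lipoprotein lipase, the product of Lpl, releases them from triglyceride-rich lipoproteins on the capillary surface, where Gpihbp1, a protein of capillary endothelial cells, holds it, and Angptl4 inhibits it. Released fatty acids enter the cell with the help of Cd36 and the Slc27 (FATP) proteins, are carried in the cytosol by fatty acid binding proteins, and can activate the PPAR receptors, which switch on many genes of fatty acid use, Angptl4 among the best known. Vldlr encodes a receptor that takes up triglyceride-rich lipoproteins.

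The 250 bases before the annotated start of Angptl4 and Fabp3 are shown because these genes had the largest fold rise and the highest level in the knockdown of the 6 members with a sequence in the RefSeq promoter table (GRCr8). The others with a sequence were Cd36, Slc27a1, Slc27a4 and Vldlr. Capitals mark the TATA box letters TATAAA, read on both strands. The Angptl4 window is chr7:15258682-15258931 on the minus strand, and the Fabp3 window is chr5:147935875-147936124 on the plus strand. Both are written 5′ to 3′ in the direction of the gene.
Angptl4: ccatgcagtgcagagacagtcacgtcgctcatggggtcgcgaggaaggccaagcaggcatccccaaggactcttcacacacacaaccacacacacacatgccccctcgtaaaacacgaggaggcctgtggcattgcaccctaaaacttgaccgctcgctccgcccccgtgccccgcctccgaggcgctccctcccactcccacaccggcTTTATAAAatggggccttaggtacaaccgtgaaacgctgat
Fabp3: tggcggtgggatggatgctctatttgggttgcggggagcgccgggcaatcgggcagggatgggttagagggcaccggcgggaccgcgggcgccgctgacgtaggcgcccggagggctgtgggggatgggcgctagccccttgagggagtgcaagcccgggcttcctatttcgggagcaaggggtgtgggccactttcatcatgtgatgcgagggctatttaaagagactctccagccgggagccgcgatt
The Angptl4 window held TATAAA on each strand, in 2 overlapping matches, and 33 bases lay between the match on the strand of the gene and the start. The Fabp3 window held no TATAAA, and other spellings of the box were not searched. Of 33469 windows of this length, 12.9% held TATAAA on either strand, and of the 6 members Angptl4 and Cd36 did. The element bound by PPAR and its partner RXR, searched as 2 copies of AGGTCA in the same direction with 1 base between them on either strand, was in 0.0508% of the windows and in none of the 6. A single AGGTCA on either strand, which also counts the copies within that element, was in 14.1% of the windows and, of the 6 members, in that of Slc27a1 alone. In mouse and human the known PPAR element of Angptl4 lies in an intron, outside such a window.

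Decr1 itself was low in each knockdown library. Its level was 3.33, 1.24 and 2.36 FPKM in the knockdown libraries, against 43.6, 44.3 and 42.8 FPKM in the controls, a mean of 5.30% of control. FPKM divides the fragments of a gene by its length and by the depth of the library. Levels of different genes can be compared on it as far as the lengths used are right. Those lengths were not checked, and the orders, shares and ratios of genes below depend on them. The libraries held 35290664 to 37413240 fragments in the knockdown and 39659092 to 40108670 in the controls, so for a 1 kb gene 3 reads are worth 0.0748 to 0.0850 FPKM. A log2 fold change below is the knockdown mean minus the control mean of log2(FPKM + 1), a scale on which low genes appear to change less than they do. Tests were run with limma on the 11975 features whose mean reached 1 FPKM, and p-values were adjusted over all of them by the Benjamini-Hochberg method.

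Of the 10 genes, 9 passed the filter and were tested, and Gpihbp1 did not. In the knockdown 7 of the 9 were higher (Angptl4, Fabp4, Fabp3, Slc27a4, Cd36, Vldlr and Slc27a1) and 2 were lower (Fabp5 and Lpl). Most of the transcriptome differed between the groups, so this count is to be read against a high background. Of all tested features 80.8% passed the same threshold, 48.4% as higher and 32.4% as lower. The groups did not overlap for 8 of the 9 genes, Cd36 being the exception, against 82.3% of all features. The median log2 fold change of the 9 was 0.76, against 0.14 over all features. After median-ratio scaling the medians were 0.64 and -0.02, and after quantile normalization 0.65 and 0.03. Under each of these scalings 6 of the 9 were higher and 2 lower, and Cd36 did not pass. Of the 11975 features, 4649 were then higher and 4905 lower with median-ratio scaling, and 4989 and 4568 with quantile normalization. In the same libraries all 12 fibroblast markers fell, by a median of -3.29 on the log2 scale. In bulk RNA, fewer cells of a type and less RNA per cell cannot be told apart. A called rise of at least 1 was seen in 10.9% of all features and here in Angptl4, Fabp4 and Fabp3.

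**Figure D1:**
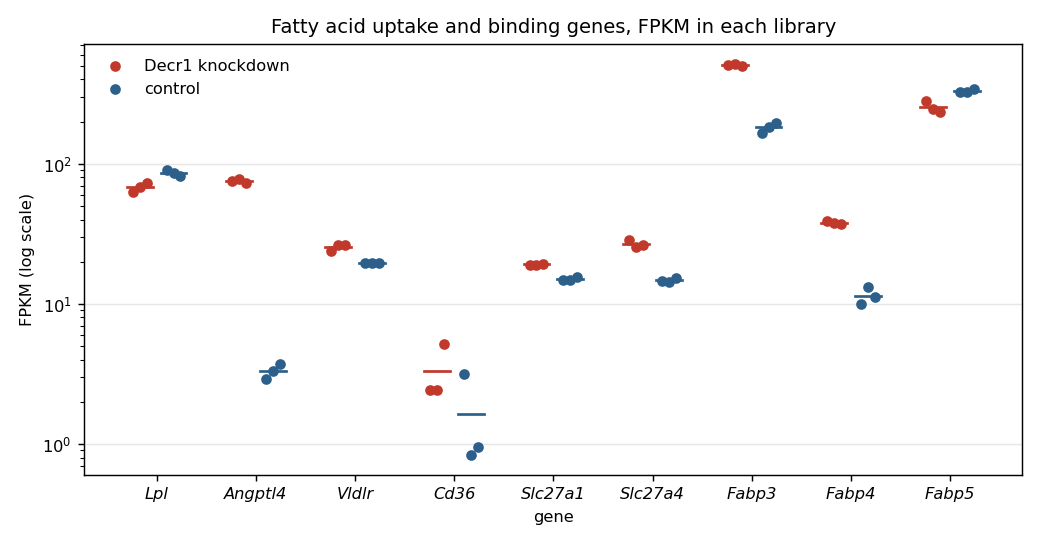
FPKM on a log scale (vertical axis) of the 9 genes above 0 (horizontal axis) in each of the 3 knockdown libraries (red, left) and 3 control libraries (blue, right), with a line at each group mean. Only Cd36 has groups that overlap, and Angptl4 lies beside Lpl in the knockdown and near the lower end of the set in the controls.

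The lipoprotein lipase axis changed in its make-up more than in Lpl itself. Lpl stood at 63.0, 68.2 and 72.6 FPKM in the knockdown libraries, against 90.7, 85.8 and 81.6 FPKM in the controls. Each knockdown library was below each control library, on 7145 to 7761 reads against 9921 to 10998. Lpl fell by 0.34 on the log2 scale (SE 0.06, limma, Benjamini-Hochberg adjusted p = 0.000457), and 78.9% of the control mean remained. Angptl4, the inhibitor, stood at 75.3, 77.3 and 73.3 FPKM in the knockdown libraries, against 2.93, 3.33 and 3.72 FPKM in the controls. These values rested on 7241 to 8092 reads in the knockdown and 328 to 418 in the controls. The groups were far apart, and the replicates of each lay close together. The ratio of the means was 22.6, and single libraries of the groups differed by 19.7-fold to 26.4-fold. The log2 fold change of Angptl4 was 4.14 (SE 0.07, limma, Benjamini-Hochberg adjusted p = 5.13e-11).

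Angptl4 transcript was thus near the level of Lpl transcript in the knockdown and far below it in the controls. The ratio of Angptl4 to Lpl FPKM was 1.20, 1.13 and 1.01 in the knockdown libraries, against 0.0323, 0.0389 and 0.0456 in the controls. Its mean was 1.11 ± 0.09 in the knockdown and 0.0389 ± 0.0067 in the controls (SD, n = 3 each). For this ratio the exact permutation test, two-sided, gave p = 0.1, and 3 libraries against 3 can give none smaller. Among all tested features Angptl4 ranked 1029 of 11975 by mean FPKM in the knockdown and 9109 in the controls, while Lpl ranked 1149 and 779.

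Gpihbp1, the endothelial partner of the lipase, was listed at 0 in all 6 libraries, with no reads. Without the annotation behind the counting, whether reads of this gene could be counted is unknown, so its 0 is no measure of its expression. The endothelial markers were low in the same libraries, with a summed level of 24.3 to 26.6 FPKM over 11 genes in the knockdown and 21.99 to 23.1 FPKM in the controls, and none of the 11 was at 0 in every library. Pecam1, an adhesion molecule of endothelial cells, stood at 0.259 to 0.331 FPKM in the knockdown and 0.933 to 1.21 FPKM in the controls, below the filter. Cdh5, the cadherin of endothelial junctions, stood at 1.19 to 1.37 FPKM in the knockdown and 0.940 to 1.33 FPKM in the controls and did not pass the test. Of the other 6 tested, Kdr, Flt1 and Esam were higher and Tek, Tie1 and Egfl7 lower, but Esam did not pass under either scaling. Vldlr, the lipoprotein receptor, stood at 23.7, 26.3 and 26.3 FPKM in the knockdown libraries, against 19.7, 19.6 and 19.7 FPKM in the controls. Each knockdown library was above each control library, with nearly equal controls. The rise was small, with a log2 fold change of 0.35 (SE 0.05, limma, Benjamini-Hochberg adjusted p = 0.000155), and it was 0.18 after either scaling.

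**Figure D2:**
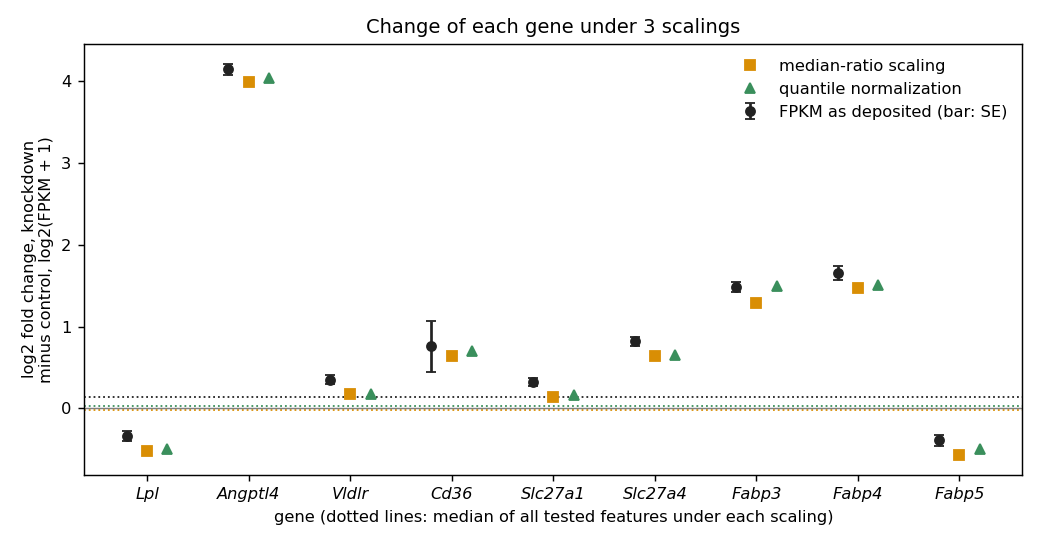
Log2 fold change, of knockdown over control as log2(FPKM + 1) (vertical axis), of the 9 tested genes (horizontal axis) on FPKM as deposited (black, bars are SE), with median-ratio scaling (orange squares) and with quantile normalization (green triangles), with dotted lines at the median of all tested features under each. Angptl4 stands highest under all 3, Lpl and Fabp5 are below 0 under all 3, and Vldlr and Slc27a1 lie nearest to 0 after either scaling.

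Of the transporters, Slc27a4 rose most clearly and Cd36 was uneven between replicates. Slc27a4, an acyl-CoA synthetase that promotes fatty acid uptake, stood at 28.6, 25.6 and 26.3 FPKM in the knockdown libraries, against 14.7, 14.3 and 15.4 FPKM in the controls. The groups did not overlap, and the rise was 0.82 on the log2 scale (SE 0.06, limma, Benjamini-Hochberg adjusted p = 4.58e-07). Slc27a1, its relative that is known from muscle and fat, stood at 18.9, 19.1 and 19.4 FPKM in the knockdown libraries, against 14.9, 14.9 and 15.7 FPKM in the controls. It rose by less, with a log2 fold change of 0.32 (SE 0.05, limma, Benjamini-Hochberg adjusted p = 0.000169), which was 0.14 after median-ratio scaling. In the controls the levels of this pair overlapped, and in the knockdown Slc27a4 was above Slc27a1 in each library. The ratio of Slc27a1 to Slc27a4 was 0.660, 0.744 and 0.739 in the knockdown libraries, against 1.01, 1.04 and 1.01 in the controls. The exact two-sided permutation p was 0.1, again the smallest possible.

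Cd36, the fatty acid translocase, had 2.45, 2.42 and 5.15 FPKM in the knockdown libraries, against 3.14, 0.832 and 0.951 FPKM in the controls. It was the lowest of the 9 genes in the knockdown and in the controls, on 280 to 562 reads and 102 to 388 reads. Control replicate 1 lay above knockdown replicates 1 and 2, so the groups overlapped. The log2 fold change was 0.76 (SE 0.31, limma, Benjamini-Hochberg adjusted p = 0.043). The call was lost without knockdown replicate 3 (0.48), without control replicate 2 (0.55) and without control replicate 3 (0.60), after either scaling, and with no filter on low values, while without control replicate 1 the change was 1.14. RefSeq also lists Cd36l1 and Cd36-ps1, and the authors' counting could have split reads between these and Cd36, so its level is uncertain.

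Among the binding proteins Fabp3 and Fabp4 rose and Fabp5 fell, so that Fabp3 led in the knockdown and Fabp5 in the controls. Fabp3, the form typical of heart and skeletal muscle, stood at 507, 519.6 and 503 FPKM in the knockdown libraries, against 166, 185 and 197 FPKM in the controls. The groups did not overlap, and the ratio of the means was 2.79. The log2 fold change of Fabp3 was 1.48 (SE 0.06, limma, Benjamini-Hochberg adjusted p = 7.58e-09). Fabp4, the form best known from adipocytes, macrophages and capillary endothelium, stood at 39.1, 37.5 and 37.0 FPKM in the knockdown libraries, against 9.93, 13.3 and 11.2 FPKM in the controls. It was higher in each knockdown library than in any control library, with a log2 fold change of 1.65 (SE 0.09, limma, Benjamini-Hochberg adjusted p = 5.22e-08). Fabp5, the epidermal form, found in many cell types, stood at 279.9, 247 and 234 FPKM in the knockdown libraries, against 326, 327 and 340.4 FPKM in the controls. It fell by 0.39 on the log2 scale (SE 0.06, limma, Benjamini-Hochberg adjusted p = 0.000214). RefSeq lists the pseudogenes Fabp5-ps2 and Fabp5-ps3, so its level is uncertain as far as reads of such copies were counted on it.

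The summed level of these 3 genes was 826, 805 and 774 FPKM in the knockdown libraries, against 502, 525 and 549 FPKM in the controls. Fabp3 made up 61.4%, 64.6% and 65.0% of that sum in the knockdown libraries, against 33.1%, 35.1% and 35.9% in the controls. Fabp5 made up 33.9%, 30.7% and 30.3% in the knockdown libraries, against 64.9%, 62.3% and 62.0% in the controls. The same order held in each library of a group. Fabp4 made up 4.73% ± 0.06 of the sum in the knockdown and 2.18% ± 0.30 in the controls (SD, n = 3 each). Each of the 3 shares gave an exact two-sided permutation p of 0.1, the smallest possible. Shares within a library are unchanged by a constant factor per library, as in median-ratio scaling, but not by quantile normalization, under which they were not computed.

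**Figure D3:**
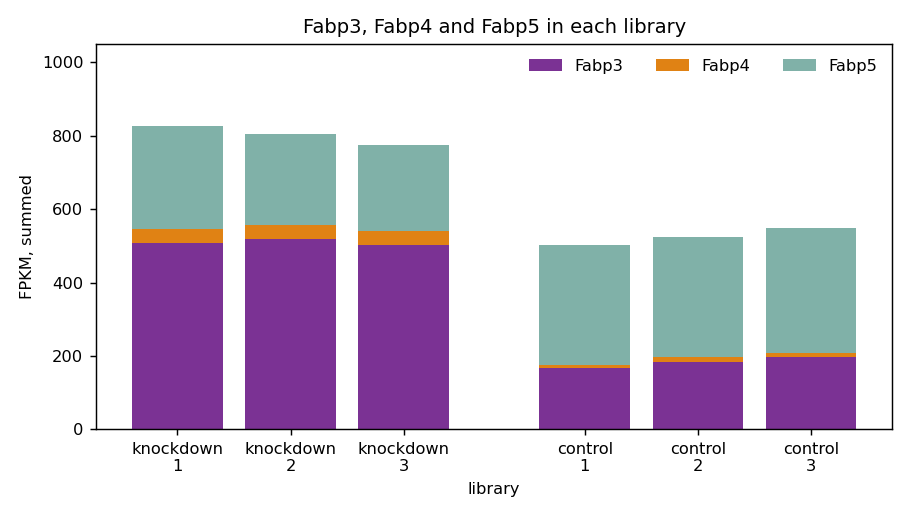
Summed FPKM (vertical axis) of Fabp3 (purple), Fabp4 (orange) and Fabp5 (green) in each library, with the knockdown libraries on the left and the control libraries on the right. Fabp3 is the tallest part of each knockdown bar, at 61.4% to 65.0%, and Fabp5 of each control bar, at 62.0% to 64.9%.

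By level, the 9 genes stood in the order Fabp3, Fabp5, Angptl4, Lpl, Fabp4, Slc27a4, Vldlr, Slc27a1 and Cd36 in the knockdown, and Fabp5, Fabp3, Lpl, Vldlr, Slc27a1, Slc27a4, Fabp4, Angptl4 and Cd36 in the controls. Neighbours in this order whose libraries overlapped were Slc27a4 and Vldlr in the knockdown, and Slc27a1 with Slc27a4 and Angptl4 with Cd36 in the controls. In the knockdown the lowest library for Angptl4, 73.3 FPKM, was just above the highest for Lpl, 72.6 FPKM.

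Other genes of lipoprotein handling, fatty acid uptake and lipid binding went both ways. In 4 lists of 67 such genes, 43 were tested, of which 15 were higher, 25 lower and 3 not past the threshold (limma, Benjamini-Hochberg adjusted p under 0.05), with a median log2 fold change of -0.28. These counts, and those of the single lists below, are to be read beside all tested features. Of these 48.4% were higher and 32.4% lower, with a median of 0.14. The count of rises in the 4 lists depended on the scaling. It was 9, beside 26 falls, with median-ratio scaling, and 9, beside 24 falls, with quantile normalization. The background moved too. Of the 11975 features tested, 4649 were higher and 4905 lower with median-ratio scaling, and 4989 and 4568 with quantile normalization. The fibroblast markers, with their median of -3.29, fell in the same libraries.

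Among partners of the lipase, 8 of 12 tested genes were lower and 3 higher. Sel1l, needed for the lipase to leave the endoplasmic reticulum, averaged 14.1 ± 0.3 FPKM in the knockdown and 37.4 ± 0.6 FPKM in the controls (SD, n = 3 each). Its co-factor in that step, Lmf1, did not pass, with 1.99 ± 0.11 FPKM in the knockdown and 2.07 ± 0.06 FPKM in the controls. Sdc4, a heparan sulfate proteoglycan of the cell surface, averaged 26.1 ± 1.8 FPKM in the knockdown and 70.3 ± 2.6 FPKM in the controls. The genes that went the other way were Pcsk6 and Furin, which encode proprotein convertases, and Lmf2. Pcsk6 averaged 28.7 ± 0.3 FPKM in the knockdown and 10.9 ± 0.7 FPKM in the controls, and Furin 103 ± 4.7 FPKM in the knockdown and 71.7 ± 2.3 FPKM in the controls. Lmf2, a relative of Lmf1, averaged 25.5 ± 1.2 FPKM in the knockdown and 21.3 ± 0.8 FPKM in the controls and did not pass after either scaling. Apoc2, the activator of the lipase, made mainly by the liver, was listed at 0 in all 6 libraries.

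Unlike Vldlr, 7 of 11 other lipoprotein receptor genes and regulators fell. Lrp1, a large receptor for remnant particles, fell to 17.1 ± 1.1 FPKM in the knockdown, against 125 ± 8.5 FPKM in the controls. Scarb1, the HDL receptor, fell to 10.9 ± 0.6 FPKM in the knockdown, against 37.0 ± 0.8 FPKM in the controls. Lsr, Lrp8, Sorl1 and Sort1 rose, with log2 fold changes of 0.91, 0.72, 1.11 and 0.12, but Sort1 was at -0.05 with median-ratio scaling and -0.03 with quantile normalization. Lrp8, which is the closest relative of Vldlr, averaged 15.1 ± 0.3 FPKM in the knockdown and 8.79 ± 0.25 FPKM in the controls.

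The other transporter and membrane genes went both ways, with 5 higher and 5 lower of 11 tested, but 1 and 6 with median-ratio scaling and 1 and 4 with quantile normalization. Cav2, a coat protein of caveolae, averaged 8.60 ± 0.21 FPKM in the knockdown and 4.25 ± 0.31 FPKM in the controls. Cavin1, another caveolar coat protein, averaged 47.8 ± 0.6 FPKM in the knockdown and 84.7 ± 8.5 FPKM in the controls. Zdhhc5, a palmitoyltransferase that acts on Cd36, averaged 17.9 ± 0.6 FPKM in the knockdown and 26.0 ± 0.7 FPKM in the controls. Of the other cytosolic lipid binding genes, 3 of 9 tested were higher and 5 lower, with the same counts under both scalings. Scp2, a sterol and fatty acid carrier, Dbi, the acyl-CoA binding protein, and Rbp2, a retinol binding protein, rose (log2 fold changes of 0.69, 0.35 and 0.54). Scp2 averaged 105 ± 2.8 FPKM in the knockdown and 64.7 ± 1.5 FPKM in the controls, and Dbi 245 ± 8.7 FPKM in the knockdown and 192 ± 2.6 FPKM in the controls. Fabp1, Fabp6 and Fabp7 were listed at 0 in all 6 libraries.

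Genes known as PPAR targets, several of which carry imported fatty acids on into storage or oxidation, mostly rose. Of 20 tested, 19 were higher and 1 was lower, with a median log2 fold change of 1.25. The list was chosen with earlier results of these data known, so this count is a description only. Of all tested features 48.4% were higher and 32.4% lower, with a median of 0.14. After median-ratio scaling 18 of the 20 targets were higher, and after quantile normalization 17. Of the 11975 features tested, 4649 were higher with median-ratio scaling and 4989 with quantile normalization. The genes with the smallest adjusted p were Cpt1b, Plin2 and Pdk4, with log2 fold changes of 2.34, 1.91 and 3.43 (limma, Benjamini-Hochberg adjusted p between 9.31e-11 and 4.41e-10). Of the receptors and partners, 3 of 6 tested rose. Pparg, the PPAR form that drives fat cell genes, stood at 8.33, 8.89 and 9.17 FPKM in the knockdown libraries, against 0.459, 0.610 and 0.874 FPKM in the controls. Ppargc1b and Ppargc1a, which encode coactivators, rose, with log2 fold changes of 1.28 and 0.50. Rxra, an RXR partner of the PPARs, was lower (-0.38), and Ppard (0.10) and Rxrb (-0.15) did not pass, although Rxrb passed as lower after either scaling. Ppara had a mean under 1 FPKM over the 6 libraries and was not tested. It stood at 0.539, 0.644 and 0.704 FPKM in the knockdown libraries, against 1.14, 1.21 and 0.976 FPKM in the controls. The fibroblast markers fell in these libraries too, with the median of -3.29.

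**Figure D4:**
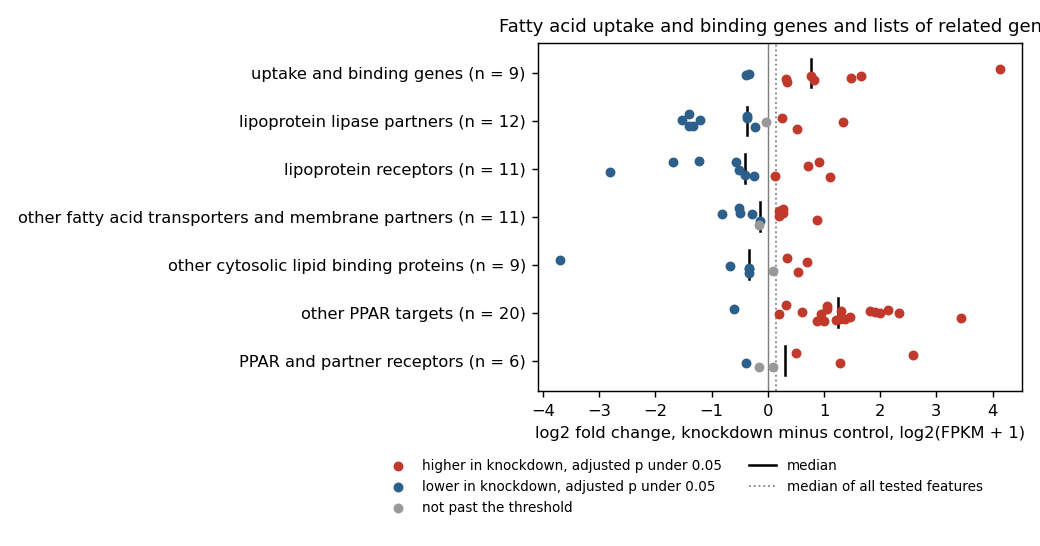
Log2 fold change (horizontal axis, knockdown minus control of log2(FPKM + 1)) of each tested gene (point) in the 9 uptake and binding genes and 6 lists of related genes (rows), with a black line at each median. Red points were higher, blue lower and grey not past the threshold. The 4 lists of related uptake and lipid binding genes have medians below 0, and the PPAR targets a median of 1.25. All lists were chosen with earlier results of these data known.

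Markers of other heart cells moved with the groups. The counts here are to be read beside all tested features, of which 48.4% were higher and 32.4% lower as deposited. Of these 11975 features, 4649 were higher and 4905 lower with median-ratio scaling, and 4989 and 4568 with quantile normalization. The 12 fibroblast markers had a summed level of 644 to 739 FPKM in the knockdown and 7459 to 8303 FPKM in the controls. The collagen genes Col1a1 and Col1a2, listed first, averaged 263 ± 20.4 and 178 ± 12.0 FPKM in the knockdown, against 3428 ± 226 and 1986 ± 129 FPKM in the controls. Of 7 epicardial and mesothelial markers, 6 were tested and each of these fell, among them Wt1 (-1.70) and Upk3b (-3.71), with a median of -3.43 and a summed level of 6.59 to 7.34 FPKM in the knockdown and 186 to 206 FPKM in the controls. Of 12 macrophage markers 8 were tested, of which 5 fell as deposited and 8 after either scaling. The summed level of the 12 was 355 to 419 FPKM in the knockdown and 577 to 641 FPKM in the controls. Cd68, the macrophage marker listed first, stood at 79.7 to 90.4 FPKM in the knockdown and 82.5 to 97.6 FPKM in the controls and did not pass as deposited, and Adgre1, below the filter, at 0.222 to 0.550 FPKM in the knockdown and 0.668 to 0.793 FPKM in the controls. Adipoq, the fat cell hormone adiponectin, and Plin1, the fat droplet coat of adipocytes, were at 0 in most libraries and at most at 0.0198 FPKM. Of the 13 cardiomyocyte markers 5 rose and 8 fell, with a median of -0.20 (3 and 8 with median-ratio scaling, 4 and 8 with quantile normalization), and the myosin genes Myh6 and Myh7 were among those that fell (-1.34 and -2.82). Each of the 13 was well above 0 in both groups, and their summed level was 13059 to 13958 FPKM in the knockdown and 18873 to 19516 FPKM in the controls. That sum does not stand for all 13, since Nppa alone averaged 5010 FPKM in the knockdown and 11702 FPKM in the controls. Actc1, the next highest, averaged 4338 FPKM in the knockdown and 2963 FPKM in the controls. Of 9 smooth muscle and pericyte markers 3 rose, among them Acta2 (1.06), and 5 fell, among them Myh11 (-0.30). Their summed level was 4614 to 5028 FPKM in the knockdown and 2893 to 3164 FPKM in the controls. Most of that sum was Acta2, at a mean of 3481 FPKM in the knockdown and 1672 FPKM in the controls, so it does not stand for all 9. The erythroid markers, Hba-a1 and Hba-a2 among them, were below the filter, with a summed level of 0.567 to 1.38 FPKM in the knockdown and 0.278 to 0.893 FPKM in the controls.

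Lpl, Fabp4, Fabp5 and Cd36 are also made by macrophages, Cd36 and Fabp4 by capillary endothelial cells, and Lrp1 and Cavin1 by fibroblasts. What part the change in these other markers has in the values of the uptake and binding genes was not tested.

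**Figure D5:**
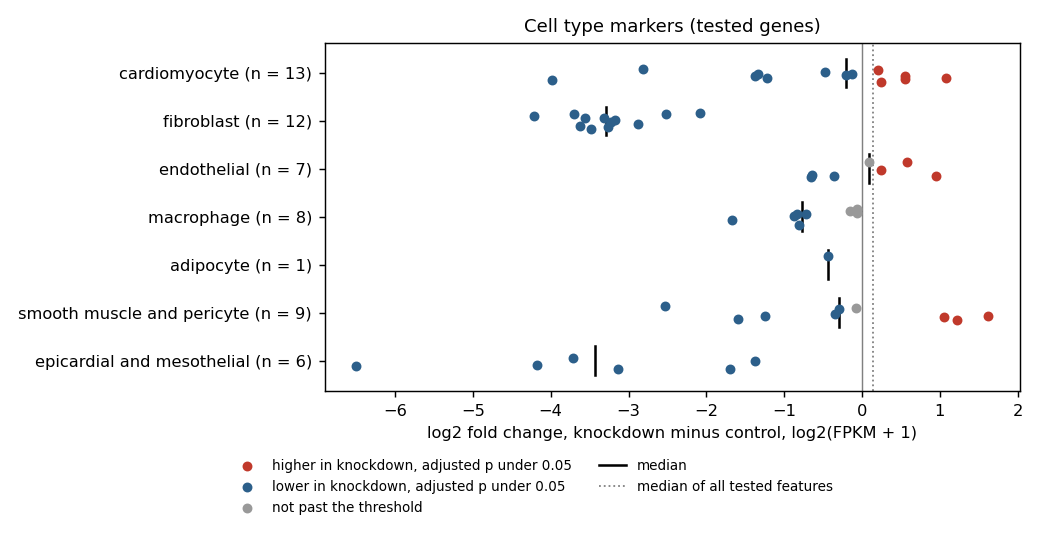
Log2 fold change (horizontal axis, knockdown minus control of log2(FPKM + 1)) of the tested markers (points) of 7 cell types (rows), with a black line at each median. Red points were higher, blue lower and grey not past the threshold. The fibroblast median is -3.29 and the cardiomyocyte median is -0.20.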

How the data were processed

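The FPKM values were computed by the authors, who deposited them as 1 table by gene symbol with a column for each library, per the file headers. TRIzol was used for RNA and a VAHTS kit for the libraries, per the labels' protocols. The tools fastp, HISAT2 and HTSeq are named in the submitters' processing notes, without versions. The strand setting, build and annotation were not given in the sources used, so reads of overlapping genes cannot be told apart. By RefSeq, Fabp3 overlaps Zcchc17, Slc27a1 overlaps Pgls, and Vldlr overlaps a non-coding gene.

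Each feature's FPKM values were whole multiples of the value of 1 read, for 22633 of the 22634 features above 0 (tolerance 1e-05 reads, wider for large multiples), which gave the reads and depths printed here. For a feature above 0 in a single library this holds in any case, so such features do not test it. The chi-square per feature between replicates was 6.81 to 11.8, where sampling noise alone gives about 1, so no libraries were merged. Values were transformed as log2(FPKM + 1), and limma 3.58.1 (eBayes with trend, R 4.3.3) was run on features whose mean of the 6 libraries reached 1 FPKM, knockdown against control, two-sided, at a Benjamini-Hochberg adjusted p of 0.05. The fit was checked on simulated data. Shares and ratios were compared by exact permutation over libraries in scipy 1.17.1. A ratio of Lpl to Gpihbp1 was planned and could not be computed with Gpihbp1 at 0. Alternatives were another pseudocount, no filter, 2 scalings, a replicate block and leaving out each library. The marker Robo4 was not analysed here.

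The 10 genes and all lists were chosen with earlier results of these data known. All 10 genes are described, with Decr1. Of each list the text names the 3 tested genes with the smallest adjusted p and those that went against most of the list, and of each cell type the first 2 markers, except some genes that are not reported here. Lmf1, Ppara, Ppargc1a, Ppard, Rxrb, Nppa, Actc1, the endothelial markers after the first 2 and the list genes given at 0 were named after their values were seen.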

Additional observations from a re-analysis of the deposited data

How the results depend on the processing

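Under the 11 alternatives to the fit, Angptl4, Fabp3, Fabp4, Fabp5, Slc27a1, Slc27a4, Lpl and Vldlr kept their direction and passed the threshold. Angptl4 ranged from 3.98 to 4.46. Cd36 kept its direction but did not pass with no filter on low values (0.76, limma, Benjamini-Hochberg adjusted p = 0.154), after median-ratio scaling (0.64) or after quantile normalization (0.70), and ranged from 0.48 to 1.14 when single libraries were left out. Over its 11 alternatives the adjusted p of Cd36 ran from 0.00142 to 0.164 (limma). The cause was not tested. The rises in the wider list of 67 genes numbered 15 as deposited and 9 after either scaling, while the median of all features was 0.14 as deposited, -0.02 with median-ratio scaling and 0.03 with quantile normalization. Rises among all features numbered 5797 as deposited, 4649 with median-ratio scaling and 4989 with quantile normalization. The Fabp3 share and the Slc27a1 to Slc27a4 and Angptl4 to Lpl ratios moved by less than 1 SD when computed from group means or with single libraries left out; the Fabp4 and Fabp5 shares were not recomputed. Same-numbered libraries of the groups did not clearly deviate together (r = 0.00, 0.07 and -0.07). A shared effect that is small beside the spread between libraries would not show in these values, so whether the numbers pair the libraries is unknown. With the replicate block 9574 features passed against 9678 without it, and all 9 tested members still passed. The reads of Cd36 were 283, 280 and 562 in the knockdown libraries and 388, 102 and 118 in the controls, so its replicates differed widely.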
